A study of Mus musculus with 24 samples.

Results

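The data describe a time course of gene expression in lungs of BALB/c mice after bleomycin. The 6 arrays were chosen by the strain, treatment and time in their titles, out of 24 arrays in the series. They stand for BALB/c mice, an inbred strain, given bleomycin into the trachea at 1.5 U per kg, with lungs frozen at 24 h, 72 h or 14 d. Each time had 2 arrays, marked a and b, hybridised with total RNA of whole lung to an Affymetrix murine expression array with 1 sample per array. The other 18 arrays carried lung RNA of BALB/c mice given saline and of C57BL/6J mice given bleomycin or saline, at the same times, and none of them enters a contrast between the times below. The labels give no sex or age, and do not say whether a and b came from separate animals, so the p-values measure only the spread between arrays, which may be technical. The description of the 24 h arrays lists several harvest times; their titles give 24 h, and the titles were followed.

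Bleomycin is an antibiotic and chemotherapy drug that cuts DNA and raises reactive oxygen species. Given into the trachea it injures the alveolar epithelium and the endothelium, after which inflammatory cells enter, surviving cells divide and fibroblasts lay down collagen-rich matrix. BALB/c is generally described as a strain that scars less than C57BL/6J in this model. The series addresses why strains differ in their fibrotic response, and the comparison of times within BALB/c addresses when each response of this strain is at its highest.

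Markers of lung cells and of heart were both read on the 6 arrays. The airway marker Scgb1a1 lay between 129 and 6871 and the type 2 cell marker Sftpb between 177 and 7739. Sftpc, another type 2 marker, read low for lung, between 5.78 and 1361. The endothelial marker Cdh5 lay between 3528 and 5753, and Pecam1, another, between 344 and 682. The heart markers Myh6 and Actc1 lay between 1859 and 3242 and between 3114 and 3586. In whole lung, fewer cells of a type and less RNA per cell cannot be told apart. Replicate arrays correlated with r = 0.968 at 24 h, 0.979 at 72 h and 0.926 at 14 d across probe sets, which are not independent. The 14 d arrays stood apart at the bright end of the scale. Of 940 probe sets whose median over all 24 arrays exceeds 3000, 49 read more than 5 times below that median on array b of 14 d and 11 on array a. That number was 2 and 3 on the 24 h arrays, 0 on both 72 h arrays and 0 to 11 on the other 18. The 72 h arrays stood apart in another way: the control probe sets for the 3′ and 5′ ends of Gapdh had a 3′/5′ ratio of 1.55 and 1.28, against 0.639 to 0.788 on the 24 h and 14 d arrays. A lower ratio means that the 5′ end of a transcript is better represented. The part of both patterns in the results was not tested, and values are given below for many of the results that move with one of them.

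**Figure D1:**
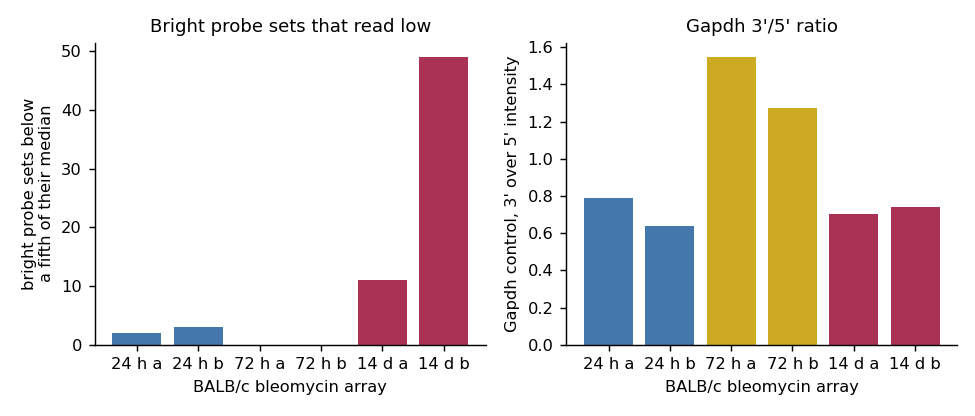
Array properties of the 6 BALB/c bleomycin arrays. Left, the number of bright probe sets (median over 24 arrays above 3000) that read more than 5 times below that median, with array b of 14 d highest at 49. Right, the ratio of 3′ to 5′ intensity of the Gapdh controls, highest on the 72 h arrays at 1.55 and 1.28.

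With all arrays the calls were most numerous between 24 h and 14 d. Counting 1 probe set for each of 6464 genes, 303 genes were higher (4.69% of those tested) and 189 lower (2.92%) at 14 d than at 24 h, 492 in all (7.61%), by limma on log2 intensities at a Benjamini-Hochberg adjusted p under 0.05. From 24 h to 72 h, the first step, 90 genes rose (1.39%) and 225 fell (3.48%), 315 in all (4.87%). From 72 h to 14 d, the second step, 74 rose (1.14%) and 95 fell (1.47%), 169 in all (2.61%). The median change over all genes was -0.02, 0.11 and 0.04 on the log2 scale for 72 h against 24 h, 14 d against 72 h and 14 d against 24 h. Over all 8710 probe sets tested the calls numbered 453 (5.2%), 230 (2.64%) and 667 (7.66%). The share of higher calls in the first step depended on scaling: 112 of the 453 calls (24.7%) were higher at 72 h, and 142 of 331 (42.9%) after quantile normalization.

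A test for any change over the 3 times called 732 genes (11.3%), which were ordered by the time of their highest mean. The peak lay at 24 h for 291 genes (4.5% of those tested), at 72 h for 156 (2.41%) and at 14 d for 285 (4.41%). Most of those with a 24 h peak, 186, were lowest at 72 h, and 105 were lowest at 14 d. Of those with a 14 d peak, 218 were lowest at 24 h and 67 at 72 h. The peak was clear, with both arrays of the peak time above the other 4, for 246, 117 and 220 genes. Among all 6464 genes, whatever their test result, 16.6% had such a clear peak at 24 h, 9.56% at 72 h and 16.7% at 14 d. Few genes passed the test in both steps: Ccnb2 rose in both, 11 rose and then fell, 14 fell and then rose, and 0 fell in both.

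**Figure D2:**
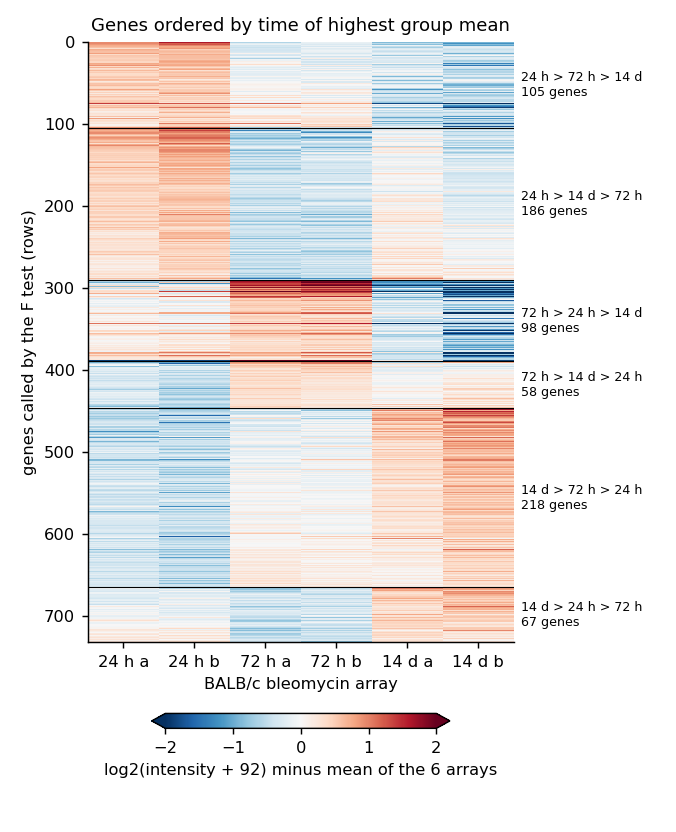
Heat map of the 732 genes called by the test for any change (rows) on the 6 BALB/c bleomycin arrays (columns), in log2 units around each gene's mean. Rows are grouped by the order of the 3 group means; the group highest at 14 d and lowest at 24 h is the largest, with 218 genes.

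The counts rest on 2 arrays a time, and single arrays moved them. For 72 h against 24 h (453 probe sets), 4 were called without array b of 24 h, 16 and 26 without array a or b of 72 h and 176 without array a of 24 h. For 14 d against 24 h (667), 58 were called without array b of 24 h, 67 without array b of 14 d, 265 without array a of 24 h and 1267 without array a of 14 d. For 14 d against 72 h (230), 16 and 20 were called without array a or b of 72 h, 44 without array b of 14 d and 448 without array a of 14 d. For any change (1008), 124 and 368 were called without array b or a of 24 h, 334 and 349 without array a or b of 72 h and 426 without array b of 14 d. Arrays outside a comparison lend it their spread and moved it less: 72 h against 24 h had 299 calls without either BALB/c saline array of 14 d. The 14 d against 72 h comparison had 125 calls without either of these, 149 without either BALB/c bleomycin array of 24 h, 151 without either C57BL/6J bleomycin array of 72 h, and 352 and 357 without array a or b of C57BL/6J bleomycin at 14 d. Without array b of 14 d the first step had more calls (582) than 14 d against 24 h (67), as it had with array weights (1744 and 303). Without array b of 24 h the second step (149) had more than 14 d against 24 h (58). Genes called with all arrays and also without each of the 4 compared arrays numbered 25 for 14 d against 24 h, 8 for 14 d against 72 h and 2 for 72 h against 24 h. All of these are named below; every other gene named below as risen or fallen lost its call without at least 1 of the 4.

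The genes that rose from 24 h to 14 d and kept their call without each array were the cell cycle genes Cdk1, Ccnb2, Cdc20 and Kif22, the matrix genes Tnc, Col5a2 and Ltbp2, the leukocyte and adhesion genes Itgb2, Vcam1 and Ccl8, and Pld3 and Nnat. Of all 25 genes of this kind, 22 changed in the same direction between the same times in the C57BL/6J bleomycin arrays and 13 in the BALB/c saline arrays. Of all probe sets tested, 41.9% were higher and 58.1% lower between these times in C57BL/6J, and 54% and 46% in the saline arrays. The 3 of these 25 genes with the other direction in C57BL/6J were Vcam1, Rps28 and H2-Bl. The strain difference between these times was not tested.

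**Figure D3:**
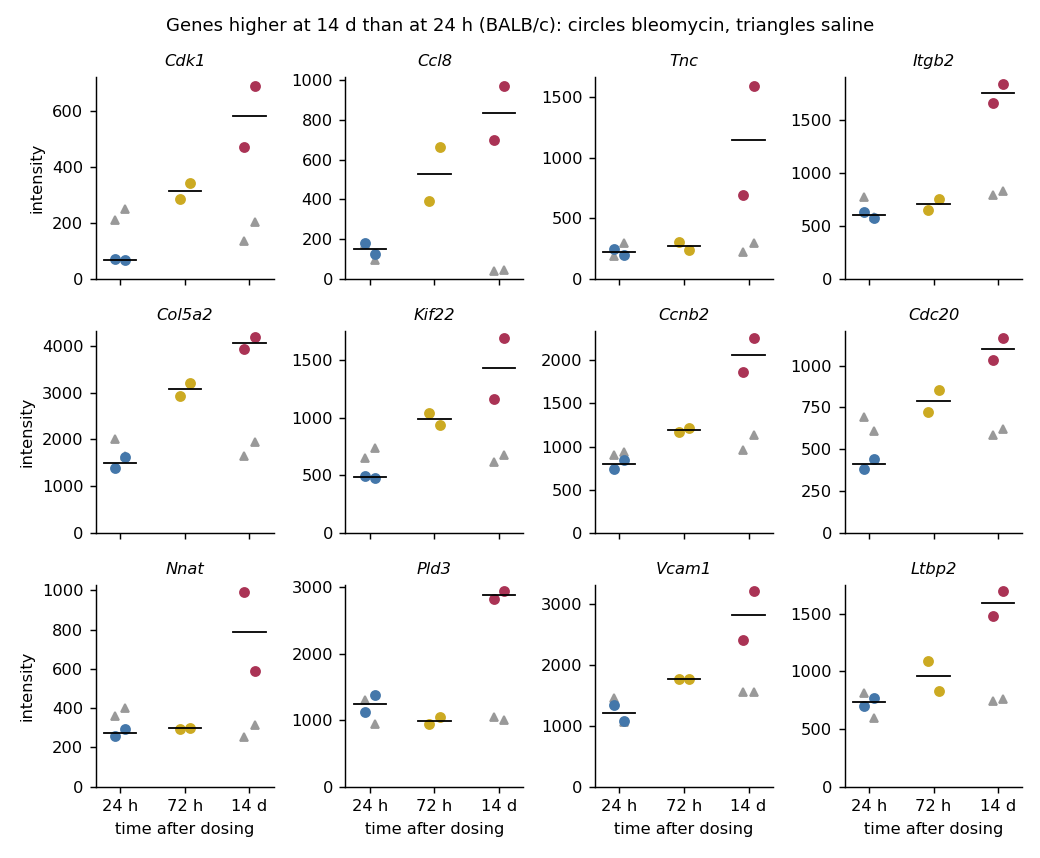
Intensity of the 12 genes that rose from 24 h to 14 d with all arrays and without each of the 4 compared arrays. Circles are the 2 BALB/c bleomycin arrays of each time, bars their mean, and grey triangles the BALB/c saline arrays of 24 h and 14 d. In all 12 the bleomycin arrays of 14 d lie above those of 24 h and above the saline arrays of 14 d.

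Some genes of the cell cycle were called higher at 14 d. Of 58 genes listed for the cell cycle and DNA replication 45 were tested, and 17 of them were higher and 0 lower at 14 d than at 24 h, against 4.69% of all genes higher. The list's median log2 change was 0.54, with 39 of 45 values above 0, beside 0.04 for all genes. Between the same times the median of these genes was -0.03 in the BALB/c saline arrays and 0.39 in the C57BL/6J bleomycin arrays. In the first step 6 rose, beside 1.39% of all genes, and in the second 3, beside 1.14%. All 18 members called in the test for any change had their highest mean at 14 d. The count of 17 was 17 without either array of 72 h, 4 without array b of 14 d, 6 without array b of 24 h, 11 without array a of 24 h, 18 without array a of 14 d and 20 after quantile normalization.

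Cdk1, the kinase that drives cells into mitosis, read 70.4 and 69.5 at 24 h, 285 and 342 at 72 h and 473 and 690 at 14 d. The 3 times did not overlap, and the log2 change from 24 h to 14 d was 2.04 ± 0.21 (SE, adjusted p = 0.000181 in limma). The 24 h arrays were below the saline arrays of 24 h, which read 212 and 249. Ccnb2, the cyclin B2 that activates this kinase, read 743 and 848 at 24 h, 1166 and 1219 at 72 h and 1867 and 2263 at 14 d. It was the one gene to rise in both steps (0.54 ± 0.15, adjusted p = 0.0414, and 0.74 ± 0.15, adjusted p = 0.0146). Cdc20, an activator of the complex that ends mitosis, read 381 and 445 at 24 h, 724 and 855 at 72 h and 1034 and 1168 at 14 d (14 d against 24 h 1.24 ± 0.18, adjusted p = 0.00151). Kif22, a kinesin motor that moves chromosomes, read 496 and 479 at 24 h, 1037 and 936 at 72 h and 1162 and 1692 at 14 d (1.37 ± 0.21, adjusted p = 0.00187). For these 3 genes too the groups of the 3 times did not overlap. As for Cdk1, the bleomycin arrays of 24 h were below the saline arrays of 24 h for Ccnb2 (907 and 938) and Cdc20 (694 and 612). Aurkb, the mitotic kinase Aurora B, read 76.3 and 95.2 at 24 h, 83.3 and 95.6 at 72 h and 527 and 499 at 14 d. It was near its 24 h level at 72 h and high on both 14 d arrays (1.74 ± 0.44 in the second step, adjusted p = 0.0461). Its saline arrays of 24 h, at 213 and 72.7, lay on both sides of the bleomycin arrays of 24 h. Top2a, the topoisomerase that untangles replicated DNA, read 34.8 and 18.2 at 24 h, 168 and 241 at 72 h and 196 and 480 at 14 d and rose in the first step (1.32 ± 0.32, adjusted p = 0.0285). Foxm1, a transcription factor of mitotic genes, read 2043 and 1466 at 24 h, 884 and 1003 at 72 h and 2626 and 2334 at 14 d. Its 72 h arrays were the lowest, and it rose from 72 h to 14 d (1.31 ± 0.28, adjusted p = 0.0264). The other members called higher at 14 d than at 24 h, with log2 changes from 0.87 (Kif23) to 1.77 (Prc1), were Birc5, Mad2l1, Cks1b, Cks2, Ect2, Rrm2, Racgap1, Hmgb2 and Uhrf1.

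Promoters of mitotic genes are known for the cell cycle homology region, CHR (TTTGAA), and for CCAAT boxes bound by NF-Y. The promoters of the 4 leading cell cycle genes are printed because these genes moved together; they were chosen after the values were seen. The sequences are RefSeq's, from the reference assembly GRCm38.p6 of strain C57BL/6J and not of BALB/c, 250 bases before to 50 bases after the gene's start, 5′ to 3′ on the gene's strand, all on the minus strand. Capitals mark CHR and CCAAT matches on either strand. They lie at chr10:69352863-69353162 (Cdk1), chr9:70421505-70421804 (Ccnb2), chr4:118437294-118437593 (Cdc20) and chr7:127042371-127042670 (Kif22).
Cdk1: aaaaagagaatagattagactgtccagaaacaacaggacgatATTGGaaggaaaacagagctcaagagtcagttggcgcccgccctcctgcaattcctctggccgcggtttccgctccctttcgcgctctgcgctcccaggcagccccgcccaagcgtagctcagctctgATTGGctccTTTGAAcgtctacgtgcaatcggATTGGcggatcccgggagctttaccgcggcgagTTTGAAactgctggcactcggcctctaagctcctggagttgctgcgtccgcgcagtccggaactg
Ccnb2: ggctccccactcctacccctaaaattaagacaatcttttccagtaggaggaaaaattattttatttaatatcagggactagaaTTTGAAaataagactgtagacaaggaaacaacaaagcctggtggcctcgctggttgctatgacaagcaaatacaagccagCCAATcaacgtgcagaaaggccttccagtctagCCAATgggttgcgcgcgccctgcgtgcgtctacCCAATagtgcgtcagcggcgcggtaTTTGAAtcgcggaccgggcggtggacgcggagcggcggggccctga
Cdc20: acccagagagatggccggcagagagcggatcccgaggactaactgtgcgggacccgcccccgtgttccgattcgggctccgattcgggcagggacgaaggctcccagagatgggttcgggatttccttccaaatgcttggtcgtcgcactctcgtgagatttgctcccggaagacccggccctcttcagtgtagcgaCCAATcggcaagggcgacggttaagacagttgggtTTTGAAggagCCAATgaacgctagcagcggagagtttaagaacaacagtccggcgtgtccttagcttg
Kif22: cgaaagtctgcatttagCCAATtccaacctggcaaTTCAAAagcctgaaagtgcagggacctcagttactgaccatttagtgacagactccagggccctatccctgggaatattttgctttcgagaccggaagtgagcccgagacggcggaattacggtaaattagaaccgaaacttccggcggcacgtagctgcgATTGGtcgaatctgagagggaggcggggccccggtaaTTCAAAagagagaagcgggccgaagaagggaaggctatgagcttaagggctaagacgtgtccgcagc
Cdk1 and Ccnb2 held 2 CHR and 3 CCAAT matches each, Cdc20 1 and 2, and Kif22 2 and 2. Of the 45 tested list members 38 had a promoter in the table; 21 of them (55.3%) held the CHR and 29 (76.3%) the CCAAT letters, against 18.1% and 37.9% of all 27025 promoters. A match is a description of the letters, not a bound site. The interferon-stimulated response element, searched beside them on both strands, was in 1 of the 38 and in 3.5% of all.

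Some genes of the extracellular matrix were also called higher at 14 d, and a few already at 72 h. Of 46 listed genes of fibrillar collagens and other matrix proteins 38 were tested. In the first step 2 rose (1.39% of all genes did) and 0 fell. In the second 5 rose (1.14% of all) and 2 fell (1.47% of all). At 14 d 9 were higher (4.69% of all genes) and 2 lower (2.92% of all) than at 24 h. The list's median log2 change from 24 h to 14 d was 0.44, beside 0.04 for all genes. The median between these times was 0.04 in the BALB/c saline arrays and 0.43 in the C57BL/6J bleomycin arrays. The 9 became 2 without array b of 14 d, 2 without array b of 24 h, 3 without array a of 24 h and 13 after quantile normalization.

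Col5a2, a chain of the collagen V that starts collagen fibrils, read 1386 and 1620 at 24 h, 2932 and 3210 at 72 h and 3930 and 4180 at 14 d. Its rise from 24 h to 72 h was 0.99 ± 0.23 (adjusted p = 0.0261) and to 14 d 1.38 ± 0.23 (adjusted p = 0.00348). Col3a1, the collagen III of loose and early scar tissue, read 2384 and 2431 at 24 h, 4273 and 4226 at 72 h and 4969 and 4888 at 14 d (1.01 ± 0.25, adjusted p = 0.0226). On these probe sets both had the larger part of their difference by 72 h, and in both the 3 times did not overlap. The BALB/c saline arrays for Col3a1 were also higher at 14 d (3466 and 4104) than at 24 h (2660 and 2830), while those for Col5a2 overlapped. The 2 other probe sets of Col3a1 had the larger part after 72 h, with second steps of 1.36 (adjusted p = 0.0165) and 0.49 (adjusted p = 0.207), so the timing of Col3a1 differs between its probe sets. Col1a2, a chain of collagen I, read 2225 and 2393 at 24 h, 4487 and 4482 at 72 h and 3858 and 4991 at 14 d. It rose in the first step (0.93 ± 0.19, adjusted p = 0.0174) with no further change called. Col1a1, the other chain of collagen I, read 3590 and 4204 at 24 h, 4944 and 5628 at 72 h and 6556 and 3617 at 14 d. On this probe set array b of 14 d was at the level of 24 h, and no comparison was called (14 d against 24 h 0.32 ± 0.29, adjusted p = 0.496). On the other probe set of Col1a1, which was not called either, both 14 d arrays lay above the 4 earlier ones, at 5859 and 4402 against 3063 and 3068 at 24 h (0.71, adjusted p = 0.0892).

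A second group of matrix genes had most or all of its rise after 72 h. Tnc, tenascin C, a matrix protein of wound repair, read 248 and 199 at 24 h, 303 and 242 at 72 h and 697 and 1594 at 14 d (1.67 ± 0.28 in the second step, adjusted p = 0.00829). Both 14 d arrays lay above the 4 earlier ones, with array b the higher. Loxl1, an enzyme that crosslinks elastin and collagen, read 355 and 410 at 24 h, 309 and 381 at 72 h and 712 and 717 at 14 d (0.89 ± 0.18, adjusted p = 0.0181). Lum, lumican, which spaces collagen fibrils, read 459 and 625 at 24 h, 333 and 438 at 72 h and 862 and 1243 at 14 d (1.25 ± 0.24, adjusted p = 0.0134). Ltbp2, a binding protein of elastic microfibrils, read 702 and 766 at 24 h, 1087 and 830 at 72 h and 1483 and 1696 at 14 d. It was 1.02 ± 0.17 higher at 14 d than at 24 h (adjusted p = 0.00313). Lamb1, a laminin chain of basement membranes (second step 0.75 ± 0.15, adjusted p = 0.0173), and Dpt, dermatopontin (1.44 ± 0.35, adjusted p = 0.0428), also rose between 72 h and 14 d. Col6a1, a chain of collagen VI, fell in the second step (-0.78 ± 0.20, adjusted p = 0.0487). Eln, lower in the second step and at 14 d against 24 h, and Fn1, lower at 14 d against 24 h, are described with the bright probe sets below.

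Some macrophage genes were called higher at 14 d. Of 23 tested genes of 28 listed for macrophages, 0 were called in the first step, 3 rose in the second (1.14% of all genes did) and 9 were higher at 14 d than at 24 h (4.69% of all), with 0 lower and a median log2 change of 0.78 beside 0.04. Without either array of 14 d 1 member was called higher in the first step. The median was -0.07 in the saline arrays and 1.17 in the C57BL/6J bleomycin arrays. The summed intensity of the list was 32222 and 32112 at 24 h, 32758 and 41235 at 72 h and 46633 and 42471 at 14 d. The 9 became 2 without array b of 14 d, 1 without array b of 24 h, 2 without array a of 24 h and 10 after quantile normalization.

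Itgb2, the beta 2 integrin chain of leukocytes, read 630 and 574 at 24 h, 652 and 756 at 72 h and 1661 and 1837 at 14 d. It was not called in the first step and rose in the second (1.21 ± 0.22, adjusted p = 0.00961), with the 14 d arrays far above the others. Ctsk, cathepsin K, a collagen-cutting protease, had the same course at 724 and 734 at 24 h, 757 and 836 at 72 h and 1675 and 2433 at 14 d (1.25 ± 0.24, adjusted p = 0.0134). Itgax, the CD11c integrin chain of alveolar macrophages and dendritic cells, read 1031 and 1010 at 24 h, 808 and 926 at 72 h and 1890 and 1584 at 14 d (0.93 ± 0.17, adjusted p = 0.0126). Mmp12, the macrophage elastase, read 1254 and 1216 at 24 h, 1946 and 1690 at 72 h and 5586 and 4423 at 14 d and was 1.93 ± 0.40 higher at 14 d than at 24 h (adjusted p = 0.01). Pld3, a lysosomal nuclease of the phospholipase D family, read 1127 and 1376 at 24 h, 940 and 1042 at 72 h and 2818 and 2935 at 14 d. Both 14 d arrays were above all 4 others (1.46 ± 0.19 in the second step, adjusted p = 0.00125). Ccl8, a chemokine that draws monocytes, read 179 and 125 at 24 h, 390 and 664 at 72 h and 698 and 967 at 14 d. It rose in the first step already (1.31 ± 0.27, adjusted p = 0.0171), while the saline arrays of 14 d read 41.8 and 46.7. Csf1r, the receptor that macrophages need to survive (0.91 ± 0.23, adjusted p = 0.022), Adgre1, the F4/80 antigen (1.53 ± 0.38, adjusted p = 0.0227), and Mrc1, the mannose receptor (0.87 ± 0.24, adjusted p = 0.0335), were also higher at 14 d than at 24 h. Vcam1, an endothelial adhesion molecule for leukocytes, read 1353 and 1077 at 24 h, 1770 and 1777 at 72 h and 2422 and 3216 at 14 d (1.15 ± 0.18, adjusted p = 0.00217). Of its 2 other probe sets 1 moved the other way.

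Complement and type 2 activation genes were also called at 14 d against 24 h and in neither step. Of 12 tested complement genes 4 were higher and 0 lower at 14 d than at 24 h (median 0.70), beside 4.69% of all genes higher. C1qa, a chain of the initiator C1q, read 1721 and 1484 at 24 h, 1748 and 2505 at 72 h and 4823 and 3515 at 14 d (1.32 ± 0.26, adjusted p = 0.00833). The others, C1qb, C3ar1 and Cfp, the properdin that stabilises the alternative pathway, changed by 1.28, 1.51 and 1.26. A second probe set of C1qb went the other way. Of 12 tested genes of type 2 macrophage activation 4 were higher and 0 lower, beside the same 4.69%. Alox15, a lipoxygenase, read 27.9 and 43.6 at 24 h, 94.6 and 349 at 72 h and 386 and 497 at 14 d (2.06 ± 0.51, adjusted p = 0.0219). Chil3, the chitinase-like protein Ym1, read 1152 and 1034 at 24 h, 1354 and 2398 at 72 h and 2608 and 2760 at 14 d (1.23 ± 0.26, adjusted p = 0.0122). Both bleomycin arrays of 14 d were above all earlier bleomycin arrays for both genes. Alox15 also read 184 and 268 on the saline arrays of 24 h, above the bleomycin arrays of that time. On the saline arrays of 14 d it read 192 and 429, and the higher lay between the 2 bleomycin arrays. Chil3 read 1903 and 1391 on the saline arrays of 24 h, also above the bleomycin arrays, and 1687 and 1375 on those of 14 d. Without array b of 14 d, 1 complement gene and 0 type 2 genes were called higher. Without array b of 24 h the counts were 0 and 0, and without array a of 24 h 1 and 1.

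**Figure D4:**
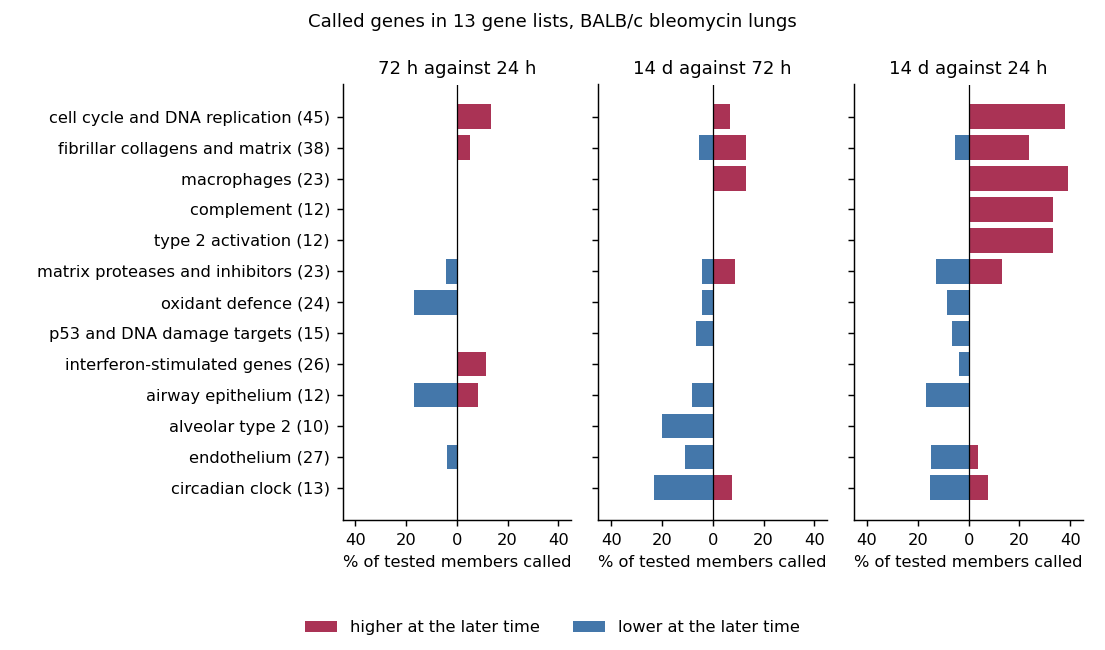
Share of the tested members of 13 gene lists (number tested in brackets) called higher (right of 0) or lower (left of 0) at the later time in each comparison. At 14 d against 24 h the cell cycle list has 17 of 45 members higher and the macrophage list 9 of 23; the oxidant defence list has 4 of 24 lower at 72 h.

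Several genes of oxidant defence were highest at 24 h. Of 24 tested members of this list 4 fell and 0 rose from 24 h to 72 h, beside 3.48% of all genes lower. They were Gpx2, Srxn1, Gclm and Gclc, and 2 (Gpx2 and Gsta3) were lower at 14 d than at 24 h, beside 2.92% of all genes. Gpx2, the glutathione peroxidase of epithelia, read 2179 and 1982 at 24 h, 634 and 796 at 72 h and 916 and 802 at 14 d (-1.43 ± 0.27, adjusted p = 0.0108). Srxn1, sulfiredoxin, which restores peroxiredoxins, read 738 and 900 at 24 h, 322 and 325 at 72 h and 650 and 474 at 14 d (-1.13 ± 0.21, adjusted p = 0.0092). Gclm, a subunit of the rate-limiting enzyme of glutathione synthesis, read 1307 and 1005 at 24 h, 623 and 558 at 72 h and 717 and 936 at 14 d (-0.86 ± 0.19, adjusted p = 0.0199). Both arrays of 24 h lay above the other 4 for all 3. Gsta2, a glutathione transferase, read 2383 and 1965 at 24 h, 500 and 568 at 72 h and 592 and 399 at 14 d. It fell in the first step (-1.85 ± 0.28, adjusted p = 0.00294) and was low at 14 d (-1.96 ± 0.28 at 14 d against 24 h, adjusted p = 0.00122). The saline arrays read 692 and 1464 at 24 h and 725 and 732 at 14 d for Gsta2. The 4 falls became 1 without array a of 24 h and 0 without array b of 24 h or either array of 72 h. In the second step 1 member, Txn1, thioredoxin, fell (-0.60 ± 0.16, adjusted p = 0.0486), beside 1.47% of all genes. Txn1 was not called after quantile normalization.

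Members of other lists also peaked at 24 h. In the airway epithelium list (12 tested) Aldh3a1, an aldehyde dehydrogenase, read 1714 and 1145 at 24 h, 512 and 604 at 72 h and 822 and 530 at 14 d (-1.20 ± 0.29, adjusted p = 0.0274). Foxj1, the factor that sets up motile cilia, read 1239 and 1621 at 24 h, 468 and 778 at 72 h and 734 and 833 at 14 d (-1.11 ± 0.27, adjusted p = 0.0292). The member Ces1d, a carboxylesterase, rose in that step. Alas2, the haem synthesis enzyme of red cell precursors, read 7642 and 9227 at 24 h, 2297 and 2957 at 72 h and 2887 and 2691 at 14 d (-1.65 ± 0.24 in the first step, adjusted p = 0.00294). Its saline arrays read 5537 and 8586 at 24 h and 4431 and 3765 at 14 d. Slc4a1, the band 3 anion exchanger of red cells, also fell (-1.18 ± 0.22, adjusted p = 0.0092). These were 2 of 5 tested red cell genes, beside 3.48% of all genes. Car2, of the same list, went the other way, at 2756 and 2601 at 24 h and 5103 and 3498 at 14 d (0.64 ± 0.19, adjusted p = 0.0472 in limma). The summed intensity of the 5 tested red cell genes was 11676 and 13016 at 24 h, 6109 and 6488 at 72 h and 8923 and 6899 at 14 d. Alas2 was the larger part of this sum at 24 h. Tff1, a trefoil peptide of mucous cells, read 3752 and 4239 at 24 h, 1286 and 1351 at 72 h and 1601 and 1417 at 14 d (-1.53 ± 0.26, adjusted p = 0.00679). Timp2, an inhibitor of matrix proteases, read 2325 and 2670 at 24 h, 924 and 995 at 72 h and 2094 and 1119 at 14 d. It fell in the first step (-1.30 ± 0.20, adjusted p = 0.00294).

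Mdm2, which restrains p53 and is induced by it, read 2881 and 3337 at 24 h, 2900 and 2986 at 72 h and 1132 and 1655 at 14 d. It was high at both early times and lower at 14 d (-1.13 ± 0.18 at 14 d against 24 h, adjusted p = 0.00261). It was the one called gene of 15 tested p53 targets, counting 1 probe set a gene. The test for any change called 11.3% of all genes. Cdkn1a, the p21 inhibitor of the cell cycle, read 2307 and 2424 at 24 h, 1946 and 2276 at 72 h and 1576 and 1231 at 14 d. Both 14 d arrays were below the other 4, but the change was not called on this probe set (-0.73 ± 0.27, adjusted p = 0.108). A second probe set of Cdkn1a, at 2150 and 2832 at 24 h and 1081 and 1063 at 14 d, was called lower (-1.14 ± 0.31, adjusted p = 0.0302). The saline arrays of 14 d read 542 and 566 on the first. Blmh, the hydrolase that inactivates bleomycin, read 2146 and 2112 at 24 h, 1743 and 1627 at 72 h and 1515 and 1576 at 14 d and was not called (-0.44 ± 0.15, adjusted p = 0.0836).

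The other genes that were lower at 14 d than at 24 h without each array were Ago2, Ptprn, Rufy3, Mrps18a, Casq1 and Defb2, together with the bright probe sets described below. Ago2, the Argonaute protein that binds small RNAs, read 1316 and 1590 at 24 h, 523 and 542 at 72 h and 405 and 221 at 14 d (-1.96 ± 0.22, adjusted p = 0.000181), in the order of time with no overlap. Ptprn, a protein of secretory vesicles in neuroendocrine cells, read 1168 and 1433 at 24 h, 453 and 521 at 72 h and 555 and 519 at 14 d and fell in the first step (-1.26 ± 0.16, adjusted p = 0.000712). Pdc, phosducin, a regulator of G proteins known from the retina, read 297 and 258 at 24 h, 20.3 and 6.92 at 72 h and 82.3 and 126 at 14 d (-1.81 ± 0.23, adjusted p = 0.00097). Ptprn and Pdc were the 2 genes whose first step was called without each of the 4 arrays. Rufy3 (-1.91), Mrps18a, a protein of the mitochondrial ribosome (-1.26), Casq1, a calcium-binding protein of muscle (-1.04), and Defb2, a defensin (-1.52), had adjusted p values from 0.00122 to 0.00478.

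Most calls of either step had the same direction in the arrays labelled BALB/c saline. Of the 112 probe sets called higher at 72 h (1.29% of those tested), 77.7% were also higher in the saline arrays of 72 h than of 24 h, beside 47.4% of all probe sets. Of the 341 called lower (3.92%), 81.5% were also lower, beside 52.6% of all. In the C57BL/6J bleomycin arrays the shares were 90.2%, beside 48.1% of all, and 93.3%, beside 51.9% of all. Of the 371 probe sets called higher at 14 d than at 24 h (4.26% of those tested) 48.2% were also higher in the saline arrays, beside 54% of all, and of the 296 called lower (3.4%) 48.3% were also lower, beside 46% of all. The C57BL/6J bleomycin shares for this comparison were 83.6%, beside 41.9% of all, and 80.1%, beside 58.1% of all. The saline arrays of 72 h are doubtful controls: their titles say saline and their descriptions bleomycin. H2-Ea, an MHC class II gene that BALB/c expresses and C57BL/6J lacks, read 89.5 and 48.3 on them, against 2917 to 6068 on the 6 BALB/c bleomycin arrays. Their Gapdh 3′/5′ ratios were 2.16 and 1.77, the side on which the bleomycin arrays of 72 h also lay. The second step, which rests on the same 72 h arrays, had a like share: of the probe sets called higher 81.2% were also higher in the saline arrays, beside 54.7% of all, and of those called lower 80.6% were also lower, beside 45.3% of all. In the C57BL/6J bleomycin arrays the shares of this step were 81.2%, beside 43.7% of all, and 58.9%, beside 56.3% of all. The part of the Gapdh ratio in either step was not tested.

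**Figure D5:**
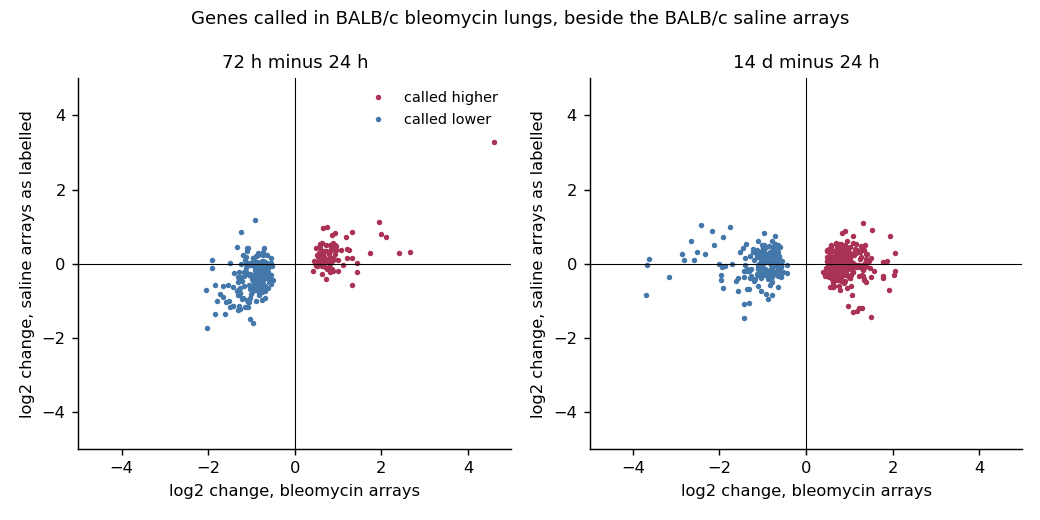
Log2 change of each called gene in the BALB/c bleomycin arrays (x axis) against the change between the same times in the arrays labelled BALB/c saline (y axis), for 72 h minus 24 h (left) and 14 d minus 24 h (right). Left, the points lie mostly in the lower left and upper right; right, they scatter on both sides of 0 on the y axis. The x axis shows called genes only, which leaves a gap around 0.

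Of the 8 genes with the largest clear peak at 72 h, 5 were read by probe sets whose names end in r, Affymetrix's mark for sets that break a design rule. Such sets make up 3.3% of all genes and 7.1% of the 156 genes with a 72 h peak. Plk3, a stress kinase, read 1.13 and 3.49 at 24 h, 2095 and 2308 at 72 h and 277 and 2.79 at 14 d. It was near 0 on 3 of the 4 arrays of the other times (4.60 ± 0.97 in the first step, adjusted p = 0.0182). The saline arrays of 72 h read 4230 and 6650 for it. Zfp94, a zinc finger gene, read 792 and 786 at 24 h, 4219 and 4894 at 72 h and 481 and 489 at 14 d (2.40 ± 0.57, adjusted p = 0.0274, then -3.01 ± 0.57, adjusted p = 0.0126). Med27, a subunit of the Mediator complex, read 89.3 and 247 at 24 h, 1098 and 1960 at 72 h and 142 and 179 at 14 d. Both were among the 11 genes that rose and then fell. For Zfp94 the saline arrays read 3323 and 4463 at 24 h and 4736 and 4078 at 14 d, near the bleomycin level of 72 h. Nomo1, a protein of the endoplasmic reticulum, read 1405 and 674 at 24 h, 4310 and 4806 at 72 h and 815 and 1114 at 14 d (2.12 ± 0.55, adjusted p = 0.0378). Sprr1b, a protein of squamous epithelium, read 733 and 343 at 24 h, 2478 and 4498 at 72 h and 265 and 176 at 14 d. Ptms, parathymosin, read 968 and 972 at 24 h, 3296 and 4497 at 72 h and 413 and 461 at 14 d. The saline arrays of 24 h and 14 d were near the 72 h level for these too, at 3264 and 3671 and 3773 and 3255 for Nomo1 and 2538 and 3547 and 3086 and 3029 for Ptms. Of 26 tested interferon-stimulated genes 3 rose to 72 h and 0 fell, beside 1.39% of all genes risen. The 3 became 0 without any 1 of the 24 h and 72 h arrays and 5 without either array of 14 d or after quantile normalization. They were Ifit2 (0.86 ± 0.21, adjusted p = 0.0305), and the transcription factors Irf1 (0.61 ± 0.16, adjusted p = 0.0361) and Irf9 (0.59 ± 0.17, adjusted p = 0.0475). At 14 d Rsad2, the antiviral protein viperin, was lower than at 24 h (-1.19 ± 0.25, adjusted p = 0.0121).

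Many of the falls from 72 h to 14 d were in bright probe sets, and a smaller share of those from 24 h. Of all 8710 probe sets tested, 931 had a median above 3000. So had 0 of the 101 called higher at 14 d than at 72 h and 25 of the 371 called higher than at 24 h (6.7%). Of the 129 probe sets lower at 14 d than at 72 h (1.48% of those tested), 70 (54.3%) were bright, and of the 296 lower than at 24 h, 45 (15.2%). Genes used by every cell were among them: Eef1a1, the elongation factor that brings tRNA to the ribosome, read 3841 and 111 at 14 d, array b far below array a, and 5741 and 7074 at 24 h. Tpt1, Gnas, Lamp1, Itgb1 and Cd74 had the same split between the 14 d arrays. Without array b of 14 d the change of Eef1a1 from 24 h to 14 d was -0.72 (adjusted p = 0.609), that of Tpt1 -0.82 (adjusted p = 0.522) and that of Gnas -0.45 (adjusted p = 0.602). That of Lamp1 was -1.21 (adjusted p = 0.429) and that of Cd74 -0.52 (adjusted p = 0.615). Fn1, fibronectin, also read lower on array b (969 and 249 at 14 d, 1400 and 1616 at 24 h), and its change of -1.41 ± 0.37 (adjusted p = 0.0276) became -0.59 (adjusted p = 0.425) without it.

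Some markers of lung epithelium fell from 72 h to 14 d, all of them read by bright probe sets. Scgb1a1, the club cell secretory protein of the airways, read 2193 and 4517 at 24 h, 6871 and 6008 at 72 h and 194 and 129 at 14 d (-4.70 ± 0.85 in the second step, adjusted p = 0.0102). Sftpb, the surfactant protein B of type 2 cells, read 2808 and 2856 at 24 h, 7739 and 7458 at 72 h and 842 and 177 at 14 d (-3.94 ± 0.81, adjusted p = 0.0197). Ager, the receptor that marks type 1 cells, read 680 and 2054 at 24 h, 4248 and 7454 at 72 h and 538 and 224 at 14 d (-3.68 ± 0.84, adjusted p = 0.0317). In all 3 the 14 d arrays were below the 4 earlier ones, and array b was the lower of the 2. On the saline arrays of 14 d Scgb1a1 read 2476 and 3922, Sftpb 5243 and 3645 and Ager 6765 and 6178. Without array b of 14 d the second step was -4.51 for Scgb1a1 (adjusted p = 0.069), -3.04 for Sftpb (adjusted p = 0.154) and -3.18 for Ager (adjusted p = 0.174). In the second step 2 of 10 tested type 2 cell genes, 1 of 8 type 1 cell genes and 1 of 12 airway genes were lower, beside 1.47% of all genes, and 0 were higher. Bright probe sets fell more often than others in this step: 70 of the 931 tested were called lower. Leaving out the brightest probe sets left 3 type 2, 2 type 1 and 5 airway members, of which 0 were lower in this step. That setting removes the 3 markers described above, so it cannot test their falls. The part of the low bright probe sets of 14 d in these falls was not tested.

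The falls that kept their call without each array included Eln, Ctsd, Rps28, H2-Bl, Rnf10, Sct and Klf2. Eln, elastin, the protein of elastic fibres, read 4896 and 5030 at 24 h, 5974 and 6953 at 72 h and 457 and 192 at 14 d (-3.68 ± 0.44 at 14 d against 24 h, adjusted p = 0.00032). A second probe set of Eln read 536 and 504 at 24 h, 319 and 585 at 72 h and 2534 and 2949 at 14 d, so the gene's direction is uncertain. Ctsd, the lysosomal protease cathepsin D, read 5036 and 4586 at 24 h, 4215 and 3310 at 72 h and 463 and 190 at 14 d (-3.63 ± 0.56, adjusted p = 0.00187). Rps28, a protein of the small ribosomal subunit, read 8078 and 8184 at 24 h, 8648 and 9959 at 72 h and 3242 and 1400 at 14 d (-1.88 ± 0.30, adjusted p = 0.00217). The 2 other probe sets of Rps28 were also lower at 14 d than at 24 h, but only 1 of them was lower than at 72 h. H2-Bl, an MHC class I gene whose probe set is shared within its family, read 3283 and 4449 at 24 h, 3239 and 2793 at 72 h and 963 and 483 at 14 d (-2.33 ± 0.29, adjusted p = 0.000384). Rnf10, a ubiquitin ligase, read 1315 and 1202 at 24 h, 6143 and 6998 at 72 h and 238 and 99.2 at 14 d (-4.73 ± 0.69 in the second step, adjusted p = 0.00211). Sct, the hormone secretin, read 1405 and 972 at 24 h, 3563 and 4694 at 72 h and 188 and 205 at 14 d (-3.86 ± 0.48, adjusted p = 0.000638). The other probe set of Sct moved the opposite way in this step. Eln, Ctsd, Rps28, H2-Bl and Rnf10 are bright probe sets, and Sct is not.

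Klf2, a flow-induced transcription factor of endothelium, read 608 and 243 at 24 h, 848 and 721 at 72 h and 111 and 65.1 at 14 d (-2.29 ± 0.28 in the second step, adjusted p = 0.000638). The saline arrays had a like course, 451 and 573 at 24 h and 89.8 and 165 at 14 d. Of 27 tested endothelial genes Klf2, Kdr and Lyve1 fell from 72 h to 14 d, beside 1.47% of all genes. At 14 d 4 (Klf2, Ptprb, Tie1 and Flt1) were lower and 1 (Vcam1) higher than at 24 h. Of all genes 2.92% were lower and 4.69% higher. Kdr, the main receptor of the growth factor VEGF, read 2276 and 1197 at 24 h, 4039 and 3192 at 72 h and 1107 and 1195 at 14 d (-1.57 ± 0.32, adjusted p = 0.0181). Flt1, another receptor of VEGF, read 2912 and 3058 at 24 h, 2481 and 2485 at 72 h and 1988 and 1968 at 14 d (-0.57 ± 0.13, adjusted p = 0.0153), with the 3 times in order and no overlap.  The 4 lower genes became 0 without array b of 14 d or array a of 24 h and 1 without array b of 24 h. Lyve1, a receptor of lymphatic endothelium, changed by -0.82 ± 0.19 (adjusted p = 0.0337).

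Genes of the circadian clock differed at 14 d in opposite directions. Arntl, the activator BMAL1, read 378 and 439 at 24 h, 234 and 343 at 72 h and 827 and 885 at 14 d (1.33 ± 0.18 in the second step, adjusted p = 0.00125), with both 14 d arrays above all others. Dbp, a factor switched on by BMAL1, read 205 and 189 at 24 h, 516 and 272 at 72 h and 36.6 and 52.9 at 14 d (-1.78 ± 0.41, adjusted p = 0.0317). Nr1d2, the repressor REV-ERB beta, read 941 and 841 at 24 h, 1180 and 1065 at 72 h and 491 and 443 at 14 d (-1.12 ± 0.21, adjusted p = 0.0124). Per2, a repressor of BMAL1, read 224 and 291 at 24 h, 387 and 407 at 72 h and 140 and 162 at 14 d (-1.01 ± 0.25, adjusted p = 0.045). For these 3 genes both 14 d arrays were below all others. The saline arrays of 14 d read 326 and 271 for Arntl and 930 and 408 for Dbp. Of 13 tested clock genes these 4 were called in the second step, beside 2.61% of all genes. The 3 falls became 2 without array a of 14 d and 0 without array b of 14 d or either array of 72 h, while Arntl kept its call. The time of day of harvest is not given in the labels.

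Besides Col1a1, genes often followed in this model that were not called are Tgfb1, Timp1 and Acta2. Tgfb1, the main fibrogenic growth factor, read 828 and 859 at 24 h, 538 and 648 at 72 h and 1293 and 1431 at 14 d. Both 14 d arrays were above the others, but the second step was 1.09 ± 0.32 (adjusted p = 0.0741). Timp1, an inhibitor of matrix proteases, read 4654 and 5063 at 24 h, 2630 and 3694 at 72 h and 3608 and 2523 at 14 d (14 d against 24 h -0.67 ± 0.44, adjusted p = 0.351). Acta2, the smooth muscle actin of myofibroblasts, read 4674 and 2879 at 24 h, 4114 and 4205 at 72 h and 2424 and 3560 at 14 d (-0.31 ± 0.28, adjusted p = 0.507). Ccn2, a matricellular target of TGF-beta, read 3117 and 2997 at 24 h, 4489 and 5063 at 72 h and 4690 and 5550 at 14 d. It was higher at 14 d than at 24 h (0.72 ± 0.19, adjusted p = 0.0277). Mdk, the growth factor midkine, read 374 and 144 at 24 h, 468 and 508 at 72 h and 748 and 1051 at 14 d (1.56 ± 0.29, adjusted p = 0.0053). Nnat, neuronatin, read 258 and 294 at 24 h, 296 and 298 at 72 h and 991 and 587 at 14 d (1.22 ± 0.21, adjusted p = 0.00387). Spp1, osteopontin, had no probe set above the filter.

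Markers of lymphocytes and of tissues outside the lung were called in few genes. At 14 d against 24 h 4.69% of all genes were higher and 2.92% lower, and in the first step 3.48% fell. Of 14 tested T and NK cell genes 1, Thy1, which fibroblasts also express, was higher at 14 d than at 24 h (1.50 ± 0.34, adjusted p = 0.0153). Igha and Jchain, products of plasma cells, changed by 1.38 ± 0.36 (adjusted p = 0.0263) and 0.80 ± 0.24 (adjusted p = 0.049). Of 11 neutrophil genes Ltf, lactoferrin, was higher (1.40 ± 0.38, adjusted p = 0.0299) and Cxcr2, a chemokine receptor, lower (-0.92 ± 0.27, adjusted p = 0.0442). In the heart and skeletal muscle list Tnnc1, a troponin, read 1435 and 1456 at 24 h, 1346 and 835 at 72 h and 612 and 747 at 14 d and was lower (adjusted p = 0.0132), with the summed intensity of the list between 19376 and 25731 on all 6 arrays. Of 9 tested genes of thymus and oesophagus Lor fell in the first step and Krt10 was higher at 14 d than at 24 h. Of 14 tested genes of injured epithelium and 7 of adipose tissue 0 were called in the 3 pairwise comparisons.

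The remaining lists are given beside the shares of all genes. Where no step is named, the comparison is 14 d against 24 h, in which 4.69% of all genes were higher and 2.92% lower. In the first step 1.39% of all genes rose and 3.48% fell, and in the second 1.14% rose and 1.47% fell. Of 25 cytokine and chemokine genes Ccl8 was called. Of 25 immediate early and heat shock genes Jund and Klf2 fell in the second step. The change of Jund, -2.54, was -1.26 without array b of 14 d. Of 15 genes of the unfolded protein response Pdia6 fell in the first step, with 1 of its 2 other probe sets moving the same way. Among 23 matrix proteases and their inhibitors 3 were higher at 14 d than at 24 h (Ctsk, Ctsz and Mmp12) and 3 lower (Ctsd, Plau and Timp2), and in the second step Ctsk and Mmp11 rose and Ctsd fell. Among 29 genes of TGF-beta and growth factor signalling 3 were higher (Ccn2, Igfbp2 and Ltbp2) and Bmpr2, a receptor of bone morphogenetic proteins, lower. In this list Pdgfb and Bmpr2 fell in the first step and Hbegf and Ltbp2 rose in the second. Among 17 genes of myofibroblasts and smooth muscle 2 were higher (S100a4 and Thy1) and 1 lower (Tpm2), with Thy1, which is also on the list of T and NK cells, also risen in the first step. Myh11 and Mylk, of the smooth muscle contractile apparatus, fell in the second step. The change of Mylk, -0.77, was -0.45 without array b of 14 d, and Mylk was not called after quantile normalization. Of 12 genes of MHC class II presentation Cd74 was lower, and of 15 of B and plasma cells Igha and Jchain were higher. Of the latter list Iglc1 fell in the first step and Jchain rose in the second. Of 15 cholesterol and fatty acid genes Idi1 was higher and Nsdhl lower, and Nsdhl fell in the first step too. The 2 other probe sets of Nsdhl also moved down in the first step, but 0 of them were lower at 14 d than at 24 h. Of 26 respiratory chain genes Cox5b was higher, and Atp5a1 fell in the second step. The change of Atp5a1, -0.62, was -0.43 without array b of 14 d, and Atp5a1 was not called after quantile normalization. Of 19 ribosomal protein genes Rps28 was lower, with a list median of -0.64 beside 0.04 for all genes; of the 19 probe sets 4 are not bright, and without array b of 14 d the median was -0.22. Rps28 and Rps7 fell in the second step. The change of Rps7, -1.28, was -0.82 without array b of 14 d. Of the 2 other probe sets of Rps28 only 1 fell in that step.

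Among the genes with the largest changes that no list held, Cpxm1, a secreted member of the carboxypeptidase family, read 185 and 37.9 at 24 h, 297 and 266 at 72 h and 526 and 913 at 14 d. It was 2.06 ± 0.33 higher at 14 d than at 24 h (adjusted p = 0.00261). Rraga, a GTPase that links amino acids to mTORC1, read 1484 and 1247 at 24 h, 625 and 603 at 72 h and 2236 and 2152 at 14 d (1.69 ± 0.29 in the second step, adjusted p = 0.00829). Urm1, a ubiquitin-like modifier, read 538 and 619 at 24 h, 58.8 and 85.7 at 72 h and 755 and 407 at 14 d (1.99 ± 0.34, adjusted p = 0.00829). Both were among the 14 genes that fell and then rose, with the 72 h arrays lowest. Axl, a receptor kinase for apoptotic cell uptake, read 87.7 and 37.1 at 24 h, 16.2 and 42.2 at 72 h and 298 and 252 at 14 d (1.60 ± 0.42, with an adjusted p that rounds to 0.05). Cotl1, an actin-binding protein, read 84.6 and 38.6 at 24 h, 111 and 24.1 at 72 h and 333 and 250 at 14 d (1.33 ± 0.38 at 14 d against 24 h, adjusted p = 0.0381). Falls from 24 h to 72 h included Cyp4a12b, a fatty acid hydroxylase (-2.05 ± 0.51, adjusted p = 0.0294), Pip4k2c, a lipid kinase (-1.92 ± 0.40, adjusted p = 0.0174), Bcl2l10 (-1.92 ± 0.42, adjusted p = 0.0199) and Tbc1d10a (-1.66 ± 0.37, adjusted p = 0.021). The second probe set of Tbc1d10a did not share its lower level at 14 d. Myo1c, an unconventional myosin (1.99 ± 0.37, adjusted p = 0.0092), Grb7, an adaptor of receptor kinases (1.93 ± 0.36, adjusted p = 0.0092), and Tec, a tyrosine kinase (1.44 ± 0.33, adjusted p = 0.0247), rose. Of the genes with a 24 h peak 13.7% had probe sets with the r ending, Bcl2l10, Pip4k2c and Tbc1d10a among those named.

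The strains were compared directly for the 2 steps, by testing whether the change between times differed between BALB/c and C57BL/6J. For 72 h against 24 h 0 probe sets were called by limma (525 at an unadjusted p under 0.05), so no change of this step can be called particular to BALB/c. The 5 with the smallest p, Clca3a1, Meltf, Sprr1a, Ngdn and Ly6g6c, had adjusted p values of 0.424 to 0.587 and were not called. Without array a of 24 h of BALB/c bleomycin the count was 3. For 14 d against 72 h 3 were called, 0.0344% of those tested (1523 at an unadjusted p under 0.05). Fbln2, the matrix protein fibulin 2, read 497 and 413 at 24 h, 434 and 436 at 72 h and 452 and 610 at 14 d in BALB/c. In C57BL/6J it read 607 and 438 at 72 h and 2591 and 1740 at 14 d, a difference in log2 change of -1.63 ± 0.28 (BALB/c minus C57BL/6J, adjusted p = 0.0469). Usp18, which dampens interferon signalling, read 2176 and 1842 at 72 h and 415 and 557 at 14 d in C57BL/6J and 893 and 1151 and 659 and 934 in BALB/c (1.53 ± 0.24, adjusted p = 0.04). Rps28 differed by -2.59 ± 0.42 (adjusted p = 0.04). Its probe set is among the bright ones that were low on the BALB/c arrays of 14 d. Of the 2 other probe sets of Rps28 only 1 fell in this step in BALB/c. Each of the 3 lost its call without any 1 of the 4 bleomycin arrays of 72 h or of 24 h, and the largest adjusted p over the alternatives was 0.167 for each. The count was 330 without array a of BALB/c bleomycin at 14 d, 661 without array b of C57BL/6J bleomycin at 14 d, 36 without either C57BL/6J saline array of 14 d and 0 to 6 without any other array that changed it.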

How the data were processed

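Lung RNA of 24 mouse lung samples was read on 1-channel Affymetrix arrays, and the deposited values are intensities on a linear scale, 12488 probe sets an array; how probes were summarised is not stated in the labels or files used here. The trimmed mean of every array is 799.9, so the arrays were used as scaled. Gene names come from GEO's platform annotation. Control probe sets and those not above 226 on at least 2 arrays (the 40th percentile of all values) were left out, leaving 8710. Values were taken as log2(intensity + 92), which understates changes of dim genes. limma 3.58.1 in R 4.3.3 fitted a mean for each of 12 groups of 2 arrays (12 residual degrees of freedom), with a trended prior, and Benjamini-Hochberg adjustment over all 8710; a call is an adjusted p under 0.05. Only BALB/c bleomycin means enter the time contrasts, while the other arrays lend their spread. For gene counts each gene had the probe set with the highest mean (6464 genes). No depth exists for arrays: their number limits the precision.

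Genes named by rule came from the 10 largest called rises and falls of each comparison and the 8 largest clear peaks of each time. Others were from the 4 members of each list with the smallest F-test p. The called strain differences and a few genes followed in this model were added. Some genes that met these rules, H2-K2, Hat1, Zbtb7b and Sox15 among them, are not described above. Genes called without each array and other list members were named with their values known. The samples compared and the 31 lists of genes were chosen with earlier results of these data known. The letters a and b do not pair the arrays: their deviations correlated by 0.116, -0.248 and -0.130 between times, so no block was used in the results above. The fit was tested on simulated data. Alternatives were quantile normalization, other offsets and filters, array weights, the letter as a block, fewer arrays, and each array left out in turn, where a lone remaining array is assumed to vary like the other groups. Leaving out the brightest probe sets was added after the data were seen. Figures were drawn with matplotlib 3.10.9.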

Additional observations from a re-analysis of the deposited data

Results flagged for a closer look

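A test of the strain difference in the step from 72 h to 14 d, the interaction of strain and time for the bleomycin groups in the limma fit over all 24 arrays, called 3 genes. With the 12 bleomycin arrays alone 0 were called, with adjusted p values of 0.127 to 0.132 for these genes. The difference in log2 change, BALB/c minus C57BL/6J, was -2.59 for Rps28, -1.63 for Fbln2 and 1.53 for Usp18. For Fbln2 both C57BL/6J arrays of 14 d lay above those of 72 h, while the BALB/c arrays of 14 d, at 452 and 610, were near those of 72 h, at 434 and 436. For Usp18 both C57BL/6J arrays of 14 d lay below those of 72 h, while the BALB/c arrays of the 2 times overlapped. For Rps28 the BALB/c arrays read 8648 and 9959 at 72 h and 3242 and 1400 at 14 d. Those of C57BL/6J read 7962 and 7540 at 72 h and 14746 and 8467 at 14 d. The part of the low bright probe sets of the BALB/c arrays of 14 d in this was not tested. Of the 2 other probe sets of Rps28 only 1 fell from 72 h to 14 d in BALB/c. Over the alternatives the difference ran from -3.17 to -2.01 for Rps28, from -1.91 to -1.36 for Fbln2 and from 1.31 to 1.76 for Usp18, with adjusted p values from 0.00027, 0.00247 and 0.0013 up to 0.167 for each.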

How the results depend on the processing

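With 2 arrays a time, the counts of called probe sets moved widely with single arrays and with array weights. Leaving out 1 array of the 24 in turn gave 4 to 605 calls for 72 h against 24 h (453 with all), 16 to 448 for 14 d against 72 h (230), 58 to 1267 for 14 d against 24 h (667) and 124 to 1415 for any change (1008). The strain differences ranged from 0 to 3 calls in the first step (0 with all) and from 0 to 661 in the second (3). The lowest counts came without array b of 24 h for 72 h against 24 h, 14 d against 24 h and any change, and without array a of 72 h for 14 d against 72 h. Array weights gave 1744, 136, 303 and 1670 calls for the 4 time tests and 5 and 1 for the strain differences. The 6 BALB/c bleomycin arrays alone gave 76, 88, 238 and 211. For 14 d against 72 h, no filter gave 132 and leaving out the brightest probe sets 107. The strain difference in the first step had 1 call with 3 times the offset. In the second it had 11 after quantile normalization, 6 with 3 times the offset, 6 with no trend, 5 without the C57BL/6J saline arrays of 24 h, and 0 with no filter, with the 12 bleomycin arrays alone and without the brightest probe sets. With the letter as a replicate block, which does not pair the arrays, the counts were 393, 170, 650, 896, 0 and 0. Among the recalculated changes of single genes 0 reversed, 1255 lost their call and 84 gained one. The cause of these differences was not tested.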
